A study of Mus musculus with 8 samples.

Results

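The 10 genes described here, Batf, Batf3, Fos, Fosb, Fosl1, Fosl2, Jun, Junb, Jund and Atf3, encode the AP-1 factors and their BATF and ATF3 relatives. They were taken by symbol and all were found, 10 of 54446 entries in the colon count tables and 10 of 55341 in the culture count tables. AP-1 is a dimer of basic leucine zipper (bZIP) proteins, typically a FOS or BATF family member joined to a JUN family member, that binds short DNA elements. In T cells, signals from the antigen receptor pass through MAP kinases to induce FOS and JUN genes within minutes, and calcium signals activate NFAT, which shares composite DNA elements with AP-1. BATF has no transactivation domain of its own. It pairs with JUN proteins and binds with IRF4 or IRF8, and in mouse BATF and JUNB are both required for T helper 17 (Th17) cells, the CD4+ T cells that make IL-17.

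RNA was sequenced from 8 libraries of mouse CD4+ T cells. Knockout (KO) cells were Cd4_cre Rora_fl/fl and wild-type (WT) cells were Rora_fl/fl, so that floxed Rora alleles were common to all groups and WT cells carried no Cre. Cd4-driven Cre acts in T cells generally, and not in Th17 cells alone. For the colon groups, naive CD4+ cells of either genotype had been given to Tcrbd-/- mice, which lack their own T cells but keep other immune cells. Colon CD4+ T cells were collected after 6 weeks (2 KO and 2 WT libraries), and the titles of both colon groups name colitis. For the culture groups, naive cells were activated through CD3 and CD28 for 4 days with IL-6+IL-1β+IL-23 or with TGF-β+IL-6, with 1 KO and 1 WT library per cytokine mix and hence no replicate within a mix and genotype. Before RNA extraction, every culture and isolate received PMA and ionomycin for 2 hours, which switch on protein kinase C and calcium signalling. Every level given here is thus a restimulated one. The labels do not state whether replicate libraries came from separate mice, nor the ages of the mice, so the spread behind each p-value may be technical.

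Library totals lay between 13176752 and 15922696 counts. Rora, the deleted gene, had 134 and 149 CPM (read counts scaled to library size, with TMM factors) in KO colon cells and 253 and 291 CPM in WT colon cells. In culture it had 59.2 CPM in KO and 152.5 CPM in WT cells of the IL-6+IL-1β+IL-23 mix, and 190 CPM in KO and 500.8 CPM in WT cells of the TGF-β+IL-6 mix. KO cells were lower in each pair of groups, although the gene total also counts exons outside the deleted part. All 10 T cell markers (the CD3 chains, Cd4, Lck and others) were detected in every library. In the colon their summed level was 6685 and 6545 CPM in KO against 8947 and 8631 CPM in WT libraries, with 9 of 10 lower in KO. Markers of other cells were higher in KO colon libraries. Epithelial markers summed to 125 and 126 CPM in KO against 49.8 and 46.5 CPM in WT, B and plasma cell markers to 2066 and 2246 against 580.5 and 567, fibroblast markers to 93.3 and 86.3 against 28.0 and 22.3, and macrophage markers to 73.9 and 72.6 against 54.0 and 50.5. Endothelial markers summed to 103.7 and 99.4 CPM in KO against 105 and 99.7 CPM in WT libraries, nearly all from Pecam1, which T cells can also express. The other endothelial markers tested, Cdh5 (15 and 25 counts in KO against 3 and 2 in WT) and Vwf (33 and 24 against 4 and 9), were higher in KO. Krt20 of the epithelial list and Ms4a1 of the B cell list were at 0 in both WT libraries. The part of these other cells in the colon results was not tested. In such bulk samples, fewer cells of a type and less RNA per cell cannot be told apart.

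Batf showed the smallest p for genotype of the 10 genes in the colon, and its genotype effect differed between colon and culture. The gene lies at chr12:85686669-85709087 on the plus strand (mm10, GENCODE M21). Its promoter is printed with those of Atf3, Fos, Fosb and Junb, because these 5 of the 9 genes with a RefSeq promoter window share the letters TGACG on either strand, a core found in the cyclic AMP response elements that ATF and CREB proteins bind. Each line gives the 130 bases before the RefSeq start in GRCm38.p6, 5′ to 3′ on the gene's own strand, with TGACG or its reverse complement in capitals. The positions are chr12:85686590-85686719 (plus) for Batf, chr1:191183334-191183463 (minus) for Atf3, chr12:85473760-85473889 (plus) for Fos, chr7:19310046-19310175 (minus) for Fosb and chr8:84978749-84978878 (minus) for Junb.
Batf: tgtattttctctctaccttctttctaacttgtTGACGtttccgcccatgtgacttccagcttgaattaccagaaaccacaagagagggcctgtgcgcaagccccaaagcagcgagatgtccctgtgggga
Atf3: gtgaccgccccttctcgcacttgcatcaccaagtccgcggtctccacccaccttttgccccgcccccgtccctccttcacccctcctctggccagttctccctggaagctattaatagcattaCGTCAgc
Fos: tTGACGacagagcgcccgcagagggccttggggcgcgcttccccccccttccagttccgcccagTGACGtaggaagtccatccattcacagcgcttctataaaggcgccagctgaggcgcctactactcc
Fosb: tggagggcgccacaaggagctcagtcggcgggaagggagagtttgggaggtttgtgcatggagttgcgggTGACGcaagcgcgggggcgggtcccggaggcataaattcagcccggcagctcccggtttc
Junb: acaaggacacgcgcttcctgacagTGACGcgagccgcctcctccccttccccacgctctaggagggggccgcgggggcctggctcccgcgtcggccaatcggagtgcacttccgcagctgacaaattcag
Batf carries the core at -98 to -94 from its start, Fosb at -60 to -56, Junb at -106 to -102, and Fos has copies at -129 to -125 and at -66 to -62. In Atf3 it lies on the opposite strand at -7 to -3. The RefSeq start used for Atf3 lies within the GENCODE span of the gene (chr1:191170296-191218039, minus) and not at its 5′ end. Within the full windows of 250 bases before to 50 after the start, searched on both strands, TGACG was present in 20.8% of 32851 RefSeq promoters. The full-length cyclic AMP response element TGACGTCA, which contains that core, was in none of the 9 windows and in 1.79% of all promoters. The AP-1 element TGANTCA was likewise in none of the 9, against 7.81% of all, and the nuclear receptor site AGGTCA in none, against 16.3% of all. The serum response element was in none of the 9 and in 1.63% of all. The search describes letters in these windows, leaves out sites farther from the start and does not show binding.

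Several members are neighbours on the mm10 genome. Fos (chr12:85473890-85477273, plus strand) lies 209 kb before Batf, with Jdp2 between them, and Batf3 (chr1:191097847-191108945, plus) lies 61.4 kb from Atf3 (chr1:191170296-191218039, minus). Jund (chr8:70698949-70700616, plus) and Junb (chr8:84974484-84978718, minus) share chromosome 8. The others are Jun (chr4:95049034-95052222, minus), Fosl2 (chr5:32135801-32157842, plus), Fosb (chr7:19302696-19310051, minus) and Fosl1 (chr19:5447547-5455946, plus).

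In the colon, 8 of the 10 genes passed the genotype test, in both directions. Batf, Fosl2, Junb and Jund fell in KO cells, while Fos, Fosb, Fosl1 and Atf3 rose. Jun and Batf3 did not pass. Genes were tested with edgeR's quasi-likelihood F-test with Benjamini-Hochberg adjustment over all 13084 genes tested, at an adjusted p under 0.05, which called 39.5% of them (19.6% higher and 19.9% lower in KO). All 10 members passed the filter on low counts. KO and WT libraries did not overlap for 8 of the 10 genes, beside 70.5% of all genes tested, so that lack of overlap was common in this comparison. The median log2 fold change of the 10 genes was 0.19, against 0.01 for all genes. Directions depended on the scaling of the libraries. Of all genes 2564 were called higher and 2601 lower in KO with TMM scaling, 4287 and 1253 with library totals, which shifted the median of all genes by 0.19, and 6763 and 499 with scaling to the T cell markers, chosen after seeing the data, which shifted it by 0.41. Among the 10 genes, T cell marker scaling called Fos, Fosb, Fosl1, Jun and Atf3 higher and only Batf lower. All log2 fold changes are KO over WT, with the standard error (SE) after each.

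**Figure D1:**
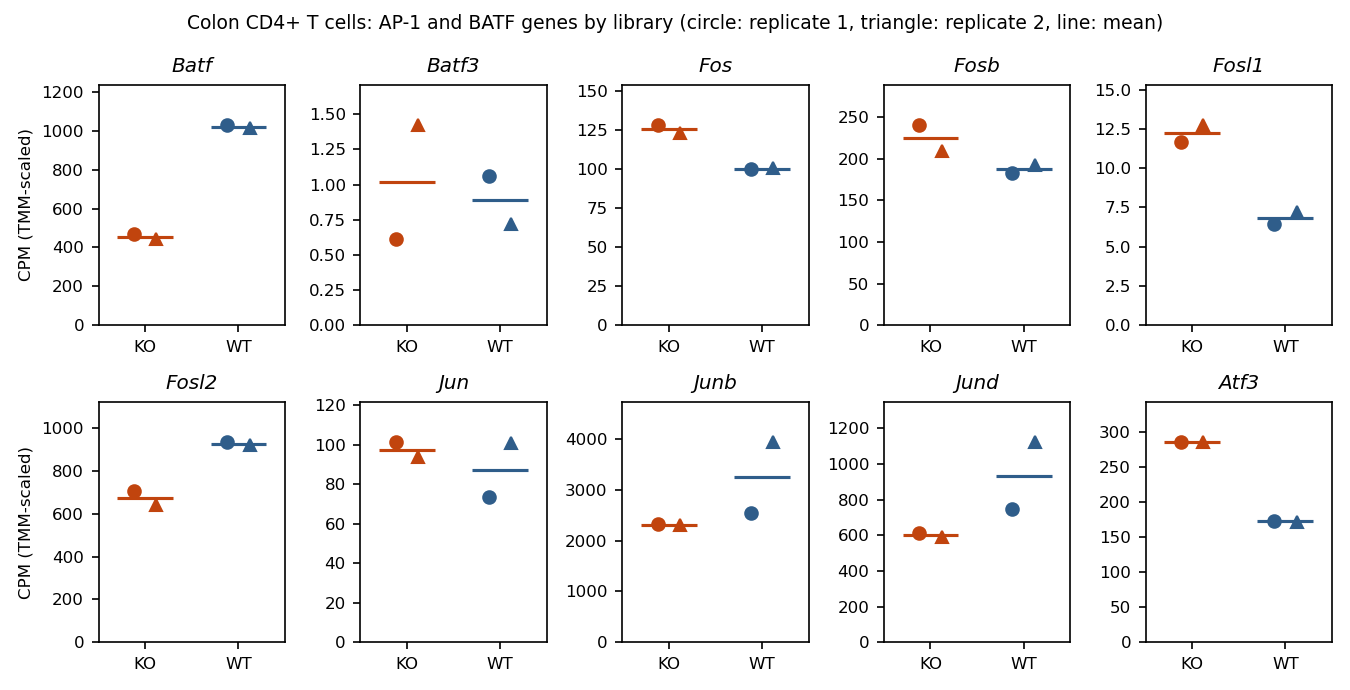
CPM of the 10 genes in colon CD4+ T cells, each on its own linear axis from 0, 1 point per library (circle, replicate 1; triangle, replicate 2), with KO libraries left of WT libraries and a line at each group mean (n = 2 each). Batf lies at 470.3 and 441.6 CPM in KO and 1032 and 1012 CPM in WT libraries, and WT replicate 2 is the higher of its pair for Jun, Junb and Jund.

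Batf, whose protein works with JUN proteins and IRF4, had 470.3 and 441.6 CPM in KO and 1032 and 1012 CPM in WT colon libraries. Both KO libraries lay below both WT libraries, at 44.6% of the WT mean. Batf thus fell by 1.16 ± 0.08 on the log2 scale (SE; edgeR adjusted p = 2.05e-06), the 42nd smallest p of the genes tested. It stayed called under all 11 alternatives tried in the colon, between -1.23 and -0.75. The smallest drop, 0.75, came from scaling the libraries to the T cell markers, which places KO and WT cells on an equal amount of T cell marker RNA (adjusted p = 3.5e-05). Batf3, the related factor best known from conventional type 1 dendritic cells, was barely detected in the colon. Its counts were 9 and 22 in KO and 13 and 10 in WT libraries. These overlap, and the ratio of 1.15 had a 95% interval of 0.649 to 2.06 from counting error alone, so that a change of that size was not detectable at this depth.

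The FOS family moved apart. Fosl2, which encodes FRA2, a FOS-family protein that lacks the strong transactivation domain of FOS, had 704 and 641 CPM in KO and 934 and 918 CPM in WT colon libraries. KO libraries lay below WT libraries, and with TMM scaling Fosl2 fell by 0.46 ± 0.08 (adjusted p = 9.27e-04). Scaled to the T cell markers, the Fosl2 difference was -0.05 with adjusted p = 0.579 in edgeR, so its call depended on that choice. Fos, the classical immediate-early member, had 128 and 123 CPM in KO and 99.8 and 100.5 CPM in WT libraries. It rose by 0.33 ± 0.08 (adjusted p = 0.0064), with the KO pair above the WT pair. Fosb, an immediate-early member with a shorter splice form that lacks transactivation, had 241 and 209 CPM in KO against 183 and 192 CPM in WT libraries. Fosb was higher by 0.26 ± 0.09 (edgeR adjusted p = 0.0329). That call was lost without KO replicate 1 (0.14, adjusted p = 0.303), without WT replicate 1 (0.22, adjusted p = 0.141) and in DESeq2 (adjusted p = 0.0543). Fosl1, which encodes FRA1, was low, with 171 and 197 counts in KO and 79 and 101 counts in WT libraries, or 11.7 and 12.8 against 6.44 and 7.23 CPM. The KO libraries were above the WT libraries, and Fosl1 rose by 0.84 ± 0.16 (adjusted p = 0.00152). Its value is uncertain, since Fosl1 overlaps Ccdc85b on the other strand (69 to 185 counts in colon libraries) and the labels state no strand setting for the counting.

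The JUN family supplies the partners of FOS and BATF proteins. Junb, the member required for Th17 cells in mouse, had 2323 and 2306 CPM in KO and 2545 and 3937 CPM in WT colon libraries. Jund, a constitutively expressed member, had 615 and 592 CPM in KO and 746 and 1124 CPM in WT libraries. Jun, the classical FOS partner, had 101.5 and 93.7 CPM in KO and 73.4 and 101 CPM in WT libraries. For Junb and Jund the KO libraries lay below both WT libraries, while for Jun the groups overlapped. Junb fell by 0.49 ± 0.15 (adjusted p = 0.0238) and Jund by 0.63 ± 0.15 (adjusted p = 0.00498), and Jun differed by 0.16 ± 0.13 (adjusted p = 0.335, edgeR).

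Junb overlaps Prdx2 on the other strand (513 to 738 counts in colon libraries, against 31231 or more for Junb) and Jun overlaps Junos (1 to 4 counts). The WT replicates stood apart from each other for the JUN genes. WT replicate 2 was 1.38-fold above WT replicate 1 for Jun, 1.55-fold for Junb and 1.51-fold for Jund. This ratio of replicate 2 to replicate 1 was lower in 98.9%, 99.6% and 99.5% of well-counted genes. For Batf, Fos, Fosb, Fosl1, Fosl2 and Atf3 that ratio lay between 0.98 and 1.12. Jun, Junb and Jund each have a single exon in the basic set of GENCODE M21 transcripts, which was used to count exons. Among 91 single-exon protein-coding genes, which include Jun, Junb and Jund, 14.3% were more than 1.4-fold higher in WT replicate 2 than in WT replicate 1. Of 6622 genes with more exons, 0.755% were. The median log2 ratio of WT replicate 2 to WT replicate 1 was 0.13 for the 91 genes and -0.01 for the 6622. The part of this in the JUN results was not tested. Without WT replicate 2, Junb differed by -0.15 (edgeR adjusted p = 0.30) and lost its call, Jun was higher in KO by 0.40 (adjusted p = 0.0066), and Jund kept its call. Junb was also not called with library totals in place of TMM scaling (-0.29, adjusted p = 0.148), with DESeq2 (adjusted p = 0.249) or with T cell marker scaling (-0.08, adjusted p = 0.70). Jund lost its call with DESeq2 (adjusted p = 0.0906) and with T cell marker scaling (-0.23, adjusted p = 0.251), and Jun gained one with library totals (0.35, adjusted p = 0.0435) and with T cell marker scaling (0.57, adjusted p = 0.00609).

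Atf3, a stress-inducible bZIP factor that can act as a repressor, had 286 and 285.5 CPM in KO and 173.6 and 171.4 CPM in WT colon libraries. Both pairs were tight and KO libraries were above WT libraries. Atf3 rose by 0.73 ± 0.08 (edgeR adjusted p = 3.36e-05) and stayed called under every one of the 11 alternatives, between 0.71 and 1.14. Beside it, of 10 heat shock and dissociation-linked genes 5 were higher and 3 lower in KO, with Hspa1b higher by 1.26 and the chaperone Hspa8 lower by 0.47 (-0.06 and not called with T cell marker scaling), and the part of cell handling in the Atf3 result was not tested.

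Counted per kilobase of exon, which allows genes to be compared, Junb stood highest of the 10 in every group. On the common scale of the 8 libraries it averaged 1107 CPM per kb in KO and 1557 CPM per kb in WT colon cells. The next ranks differed by genotype. In KO colon cells Jund (398 CPM per kb) came before Batf (357), whereas in WT colon cells Batf (803) came before Jund (620), with no overlap between neighbours in either case. Atf3 (146) likewise stood above Fosl2 (76.4) in KO and below it in WT cells (88.5 against 105.7 CPM per kb). Fos, Fosb and Jun followed, at 58.9, 39.7 and 33.7 in KO and 47.0, 33.2 and 30.2 in WT cells, where Fosb and Jun overlapped. Fosl1 was at 6.62 in KO and 3.72 in WT, and Batf3 was last at 0.703 in KO and 0.614 in WT.

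Within the FOS family the shares of these per-kb levels shifted with genotype in the colon. Fosl2 made up 42.4% and 41.8% of the family sum in KO and 56.3% and 55.2% in WT libraries. The share of Fos was 31.8% and 33.1% in KO against 24.7% and 24.9% in WT, and that of Fosb 22.5% and 21.2% in KO against 17.1% and 17.9% in WT. The family sum itself was 188.9 and 174.3 CPM per kb in KO and 189.1 and 190.2 in WT libraries. In the JUN family Junb held 71.6% and 72.3% in KO against 70.2% and 70.8% in WT libraries, so that its share was near constant while the family sum was 1551 and 1526 CPM per kb in KO and 1738 and 2675 in WT libraries.

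**Figure D2:**
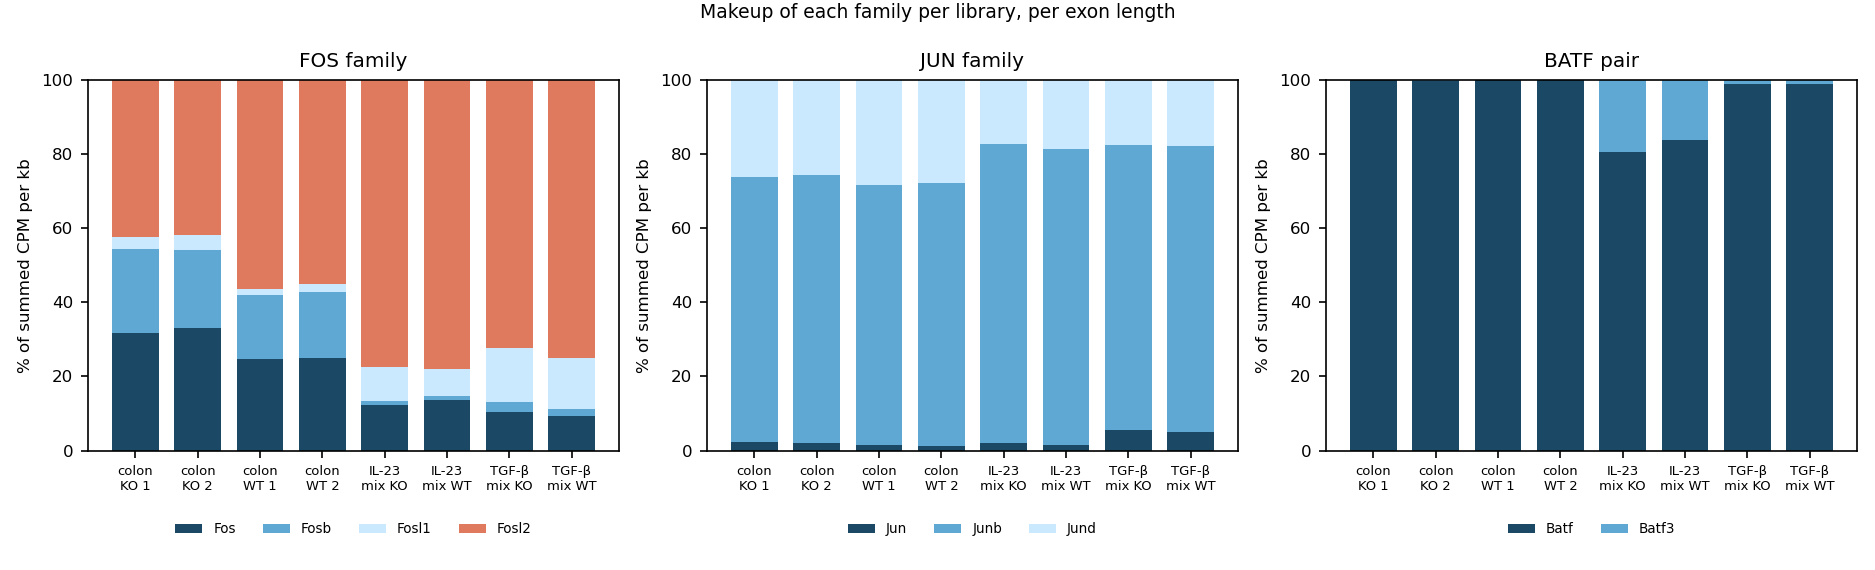
Share of each gene in the summed CPM per kb of its family (stacked bars, percent, 1 bar per library) for the FOS family, the JUN family and the BATF pair, with KO libraries left of their WT libraries. Fosl2 takes 42.4% and 41.8% of the FOS family in KO and 56.3% and 55.2% in WT colon libraries, and 72.4% to 77.9% in culture.

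In culture none of the 10 genes passed the genotype test, in a fit over both cytokine mixes. The edgeR test called 2 of 13966 genes (0.0143%), and at an unadjusted p under 0.05 it picked 1 of the 10 members, Atf3, and 3.49% of all genes. DESeq2 also called none of the 10. Batf had 115 CPM in KO and 117 CPM in WT cells of the IL-6+IL-1β+IL-23 mix, and 156 CPM in KO and 157.5 CPM in WT cells of the TGF-β+IL-6 mix. KO and WT cells differed by less than the counting error in both mixes. The KO to WT ratio was 0.981 (0.918 to 1.05) in the IL-6+IL-1β+IL-23 mix and 0.992 (0.938 to 1.05) in the TGF-β+IL-6 mix, where the 95% intervals cover counting error only. The fitted Batf difference was -0.02 ± 0.07. Atf3 had 24.3 CPM in KO and 20.1 CPM in WT cells of the IL-6+IL-1β+IL-23 mix and 14.2 and 10.2 CPM in KO and WT cells of the TGF-β+IL-6 mix. The KO library was the higher in both mixes, by 0.36 ± 0.11 in the fit (unadjusted p = 0.014, edgeR adjusted p = 1).

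Fitted differences in culture were -0.03 for Fosl2, -0.01 for Junb, -0.09 for Jund, -0.02 for Fos, 0.18 for Jun, 0.17 for Fosl1, 0.24 for Batf3 and 0.34 for Fosb, none of them past the threshold. Within a mix, with 1 library against 1 and no test, Jun had a KO to WT ratio of 1.19 (1.08 to 1.32) and Jund of 0.896 (0.858 to 0.935) in the IL-6+IL-1β+IL-23 mix. In the TGF-β+IL-6 mix those ratios were 1.08 for Jun and 0.994 for Jund. No member reached a 2-fold difference in either mix, as did 0.29% of genes in the IL-6+IL-1β+IL-23 mix and 0.24% in the TGF-β+IL-6 mix among genes with 5 CPM in either library.

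The genotype effect in the colon minus that in culture was tested itself, in a fit of all 8 libraries. It passed for 2 of the 10 members, Batf and Fosl2, where edgeR called 17.3% of 14886 genes, so the members' share was close to that of all genes. None of the 8 alternatives tried for this difference scaled the libraries to the T cell markers. For Batf the difference was -1.15 ± 0.11 (adjusted p = 3.08e-05), and it stayed called under all 8 alternatives, between -1.20 and -0.96. For Fosl2 it was -0.43 ± 0.11 (adjusted p = 0.0145), and the call was lost with library totals (-0.24, adjusted p = 0.139) and without KO replicate 2 (-0.37, adjusted p = 0.0611). Atf3 (0.37, adjusted p = 0.0582), Fosl1 (0.66, adjusted p = 0.0593) and Jund (-0.55, adjusted p = 0.0608) missed the threshold in edgeR, as did Junb (-0.48) and Fos (0.35). Some of these calls turned on the setting. With library totals Atf3 (0.56), Fosl1 (0.85) and Fos (0.54) were called, and without WT replicate 1 (-0.77 and -0.83) or without the filter on low counts (-0.49 and -0.56) Junb and Jund were called. As tested, a difference between colon and culture was not shown for these 5 genes, although they passed in the colon and not in culture. The same held for Fosb, at -0.10 (edgeR adjusted p = 0.819).

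**Figure D3:**
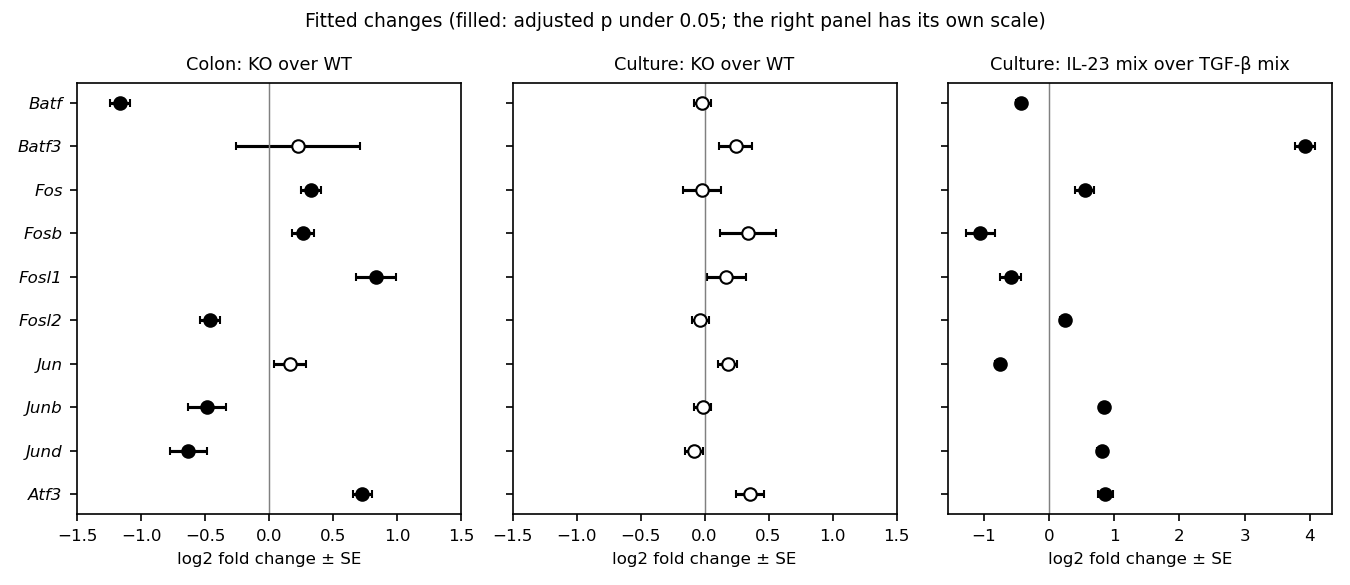
Log2 fold changes of the 10 genes with SE bars, for KO over WT in the colon, KO over WT in culture, and the IL-6+IL-1β+IL-23 mix (IL-23 mix) over the TGF-β+IL-6 mix (TGF-β mix), the last on its own scale; filled points have an adjusted p under 0.05. Batf lies at -1.16 in the colon and -0.02 in culture for genotype, and Batf3 at 3.92 for the mix.

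The cytokine mix moved all 10 genes in culture. With IL-6+IL-1β+IL-23, a mix known to yield Th17 cells that cause disease in mouse models, Batf3, Atf3, Junb, Jund, Fos and Fosl2 were higher than with TGF-β+IL-6, while Batf, Fosb, Jun and Fosl1 were lower. The test called 69.7% of 13966 genes (35.7% higher and 34% lower), with KO and WT serving as repeats, so a call was the common outcome here. Within a genotype, with 1 library against 1 and no test, 2 members in KO (Batf3 and Fosb) and 1 in WT cells (Batf3) differed by 2-fold or more, beside 27.6% of genes in KO and 28.1% in WT cells with 5 CPM in either library. With DESeq2, Fos (adjusted p = 0.147), Fosb (0.0795) and Fosl1 (0.143) lost their calls.

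Batf3 had the largest change of the 10. It had 31.7 CPM in KO and 26.0 CPM in WT cells of the IL-6+IL-1β+IL-23 mix, against 1.89 CPM in KO and 1.91 CPM in WT cells of the TGF-β+IL-6 mix (485 and 393 counts against 30 and 30). Levels were thus 16.8-fold higher in KO and 13.6-fold higher in WT cells, with a fitted log2 fold change of 3.92 ± 0.15 (edgeR adjusted p = 7.7e-07). Batf3 made up 19.5% of the per-kb sum of the BATF pair in KO and 16.3% in WT cells of the IL-6+IL-1β+IL-23 mix, and about 1.05% in both libraries of the TGF-β+IL-6 mix. Batf was opposite in direction, with 115 and 117 CPM in KO and WT cells of the IL-6+IL-1β+IL-23 mix against 156 and 157.5 CPM with TGF-β+IL-6. It fell by 0.43 ± 0.07 (adjusted p = 6.79e-04), so the pair moved apart between the mixes.

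Junb had 1683 CPM in KO and 1728 CPM in WT cells with IL-6+IL-1β+IL-23 and 949 CPM in KO and 943 CPM in WT cells with TGF-β+IL-6. Jund had 261 and 291 CPM in KO and WT cells with IL-6+IL-1β+IL-23 and 156 and 157 CPM with TGF-β+IL-6. Jun had 59.0 and 49.4 CPM with IL-6+IL-1β+IL-23 and 94.4 and 87.3 CPM with TGF-β+IL-6, in the same order of genotypes. The libraries of the mixes did not overlap for any of the 3, and Jun went against its relatives. Junb rose by 0.85 ± 0.07 (adjusted p = 1.64e-05) and Jund by 0.81 ± 0.07 (adjusted p = 2.99e-05), whereas Jun fell by 0.75 ± 0.08 (edgeR adjusted p = 7.85e-05). Prdx2, which overlaps Junb on the other strand, had 1603 to 3844 counts in culture, against 14840 to 26146 for Junb. Its part in the Junb result was not tested.

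Fosl2, the main FOS family member in culture, had 294 CPM in KO and 295 CPM in WT cells with IL-6+IL-1β+IL-23 and 244 CPM in KO and 254 CPM in WT cells with TGF-β+IL-6. It was higher by 0.24 ± 0.07 (edgeR adjusted p = 0.0111). Fos was low, at 11.3 and 12.7 CPM in KO and WT cells with IL-6+IL-1β+IL-23 and 8.62 and 7.75 CPM with TGF-β+IL-6. The difference between the mixes was 0.55 ± 0.15 (adjusted p = 0.0113, edgeR). Fosb and Fosl1 ran the other way, each with fewer counts. Fosb had 38 and 33 counts in KO and WT cells with IL-6+IL-1β+IL-23 against 89 and 65 with TGF-β+IL-6, a log2 fold change of -1.05 ± 0.22. Fosl1 had 7.39 and 5.95 CPM in KO and WT cells with IL-6+IL-1β+IL-23 against 10.2 and 9.79 CPM with TGF-β+IL-6, a log2 fold change of -0.59 ± 0.16. The overlapping Ccdc85b had 298 to 407 counts in culture, more than the 90 to 162 of Fosl1, so this value is less certain still. Atf3, whose levels are given with the genotypes, rose by 0.87 ± 0.11 (edgeR adjusted p = 2.58e-04), and its libraries with IL-6+IL-1β+IL-23 lay above those with TGF-β+IL-6.

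**Figure D4:**
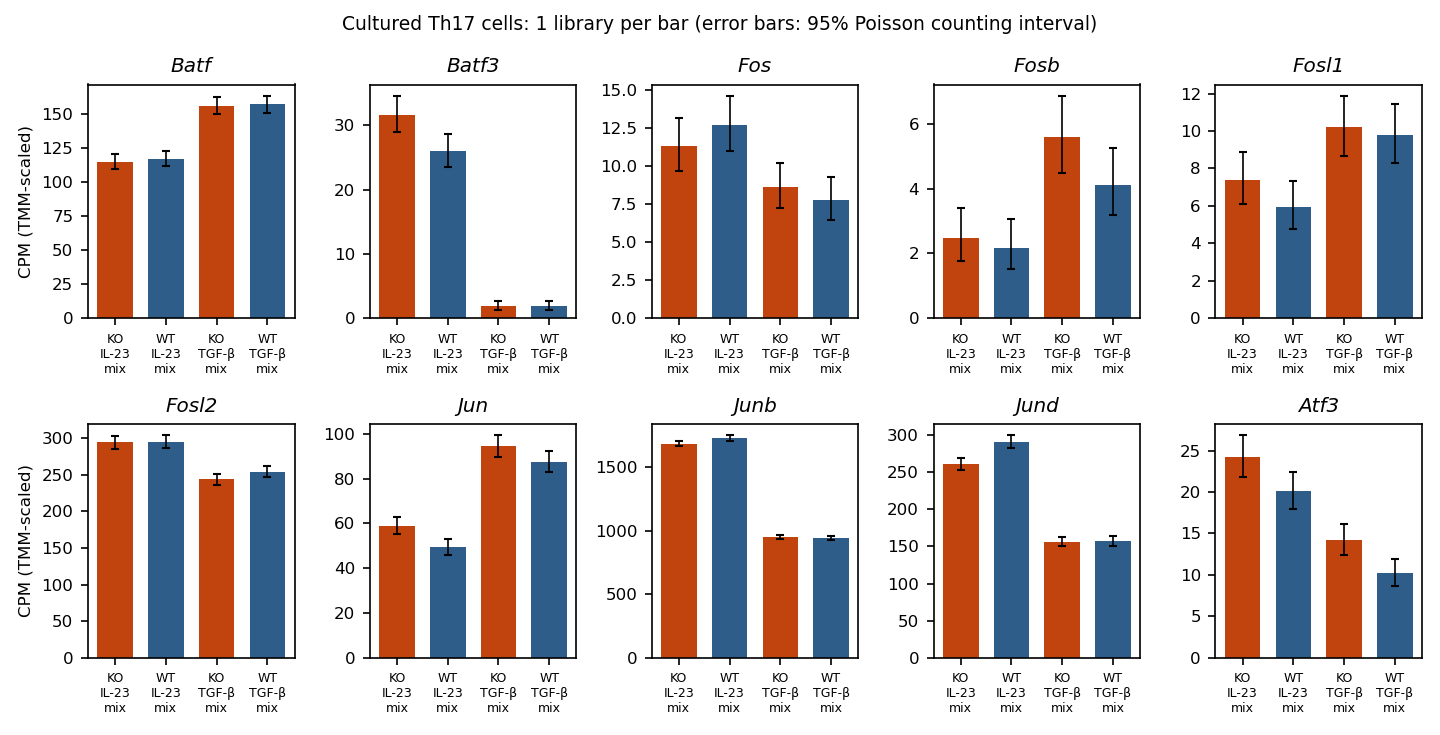
CPM of the 10 genes in cultured Th17 cells, each on its own linear axis from 0, 1 bar per library with its 95% Poisson counting interval, with the IL-6+IL-1β+IL-23 mix (IL-23 mix) left of the TGF-β+IL-6 mix (TGF-β mix) and KO left of WT in each. Batf3 lies at 31.7 and 26.0 CPM in the IL-6+IL-1β+IL-23 mix and at 1.89 and 1.91 CPM in the TGF-β+IL-6 mix.

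Other measures moved with the mix. Fibroblast markers summed to 413 CPM in KO and 448 CPM in WT cells with IL-6+IL-1β+IL-23, nearly all from Lum (388 and 423 CPM), against 2.08 and 1.78 CPM with TGF-β+IL-6, while Col3a1 was at 0 in all 4 culture libraries. Macrophage markers summed to 27.9 and 30.9 CPM with IL-6+IL-1β+IL-23 and to 2.52 and 2.22 CPM with TGF-β+IL-6, with C1qa, C1qb, C1qc and Lyz2 at 0 in all 4. Nearly all of the sums with IL-6+IL-1β+IL-23 came from Cd68 (27.45 CPM in KO and 30.6 CPM in WT cells). Endothelial markers summed to 72.0 and 64.8 CPM against 17.9 and 14.7 CPM, with Tek at 0 in all 4. Of these, Pecam1 gave 71.4 CPM in KO and 64.5 CPM in WT cells with IL-6+IL-1β+IL-23. Of the 10 heat shock and dissociation-linked genes, 4 were higher and 4 lower with IL-6+IL-1β+IL-23, with a median log2 fold change of 0.01. The inducible chaperones Hspa1a and Hspa1b were higher by 6.75 and 6.47 on the log2 scale, while Hsph1 was lower (-1.16). T cell markers summed to 5284 and 5370 CPM with IL-6+IL-1β+IL-23 and 4954 and 5034 CPM with TGF-β+IL-6. The part of any of these in the mix results was not tested.

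Colon and culture libraries differ in cell source and in the annotation of the tables, so that their levels are given without a test. On the common 8-library scale, every colon library lay above every culture library for 7 of the 10 genes, Batf, Fos, Fosb, Fosl2, Junb, Jund and Atf3, beside 28.6% of 14886 genes. The colon mean was 69.3 times the culture mean for Fosb, 16.1 times for Atf3, 13.5 times for Fos and 6.54 times for Batf. Batf3 was the reverse, with a colon mean of 0.0750 times that of culture. Fosl1 (1.38) and Jun (1.54) were close. The 16 other immediate-early genes listed summed to between 12570 and 14080 CPM in colon libraries and to between 3495 and 4704 CPM in culture libraries, each on the scale of its own fit.

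Partners and regulators of the family were counted from lists, and each count in the colon stands against 39.5% of all genes called (19.6% higher and 19.9% lower in KO). Of the 5 composite-element partners, Irf4 and Irf8 fell in KO colon cells and Nfatc3 rose (0.27), with Nfatc1 at -0.20 and not called. Nfatc3 lost its call without WT replicate 1 (0.24) and without KO replicate 2 (0.21), and Nfatc1 was called with the replicate block, in DESeq2 and without the filter, at -0.20 to -0.22. Irf4, the main partner of BATF in T cells, had 1553 and 1535 CPM in KO and 2320 and 2327 CPM in WT colon libraries. It fell by 0.59 ± 0.07 (edgeR adjusted p = 1.29e-04), with KO libraries below WT libraries, but was at -0.18 (adjusted p = 0.065) when scaled to the T cell markers. Irf8, which can also bind with BATF, had 358 and 324 CPM in KO and 558 and 564 CPM in WT libraries, and fell by 0.72 ± 0.08 (adjusted p = 5.73e-05). Neither was called for genotype in culture, and the effect in the colon minus that in culture was -0.60 for Irf4 (adjusted p = 0.00195) and -0.94 for Irf8 (edgeR adjusted p = 1.62e-04). Of 26 other bZIP factors tested in the colon 7 were higher and 7 lower in KO. They included Nfil3, a transcriptional repressor (-0.87), Atf5 (-0.86), Xbp1, a factor of the unfolded protein response (-0.72), and Cebpa, a myeloid factor (1.65).

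Upstream of AP-1, 6 of 23 kinases and adaptors tested were higher and 6 lower in KO colon cells. Mapk14, which encodes the p38α kinase, fell by 0.99, Elk1, a factor at serum response elements, by 0.88, Hras by 0.64 and Map2k3, a kinase for p38, by 0.53 (-0.12 and not called when scaled to the T cell markers). Of 9 dual-specificity phosphatases that switch MAP kinases off, 3 were higher and 3 lower. Dusp6, which acts on ERK, rose by 0.89 and Dusp16 by 0.89, and Dusp7 fell by 0.86 and Dusp4 by 0.51 (-0.10 and not called with T cell marker scaling). Among the 16 other immediate-early genes 3 were higher and 5 lower, with a median of 0.00, and the 4 with the smallest p all fell, namely Myc (-0.70), Btg2 (-0.34), Ier3 (-0.34) and Zfp36 (-0.33), although scaling to the T cell markers turned the sign of Btg2, Ier3 and Zfp36, and none of those 3 was called with library totals either.

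Of 9 Th17 genes with reported dependence on BATF or JUNB in mouse, 7 fell and none rose in KO colon cells, beside 19.9% of all genes lower, with a median of -0.81 against 0.01 for all genes. The list was drawn up with earlier results of these data known and is no independent evidence. Il17a had 566.9 and 612 CPM in KO and 2005 and 2231 CPM in WT colon libraries, and Il17f had 132 and 142.5 CPM in KO and 557.6 and 523.7 CPM in WT libraries. KO libraries lay far below WT libraries for both cytokines. Il17f fell by 1.98, Ccr6, a homing receptor, by 1.88, Il17a by 1.85 and Il10 by 0.99 (edgeR). In culture Il17a also fell in KO cells, by 0.90 (edgeR adjusted p = 0.00952), and the other 8 were not called. Among them, Ccr6 (-0.965), Il17f (-0.72), Il22 (-0.46) and Il23r (-0.44) were lower in the fit, while Il10 (0.455) and Il21 (0.07) were higher. The median of the 9 genes in culture was -0.44, against 0.00 for all genes.

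Between the cytokine mixes, where 69.7% of all genes were called (35.7% higher and 34% lower), most listed genes were called as well, in both directions. Of the 5 partners, Nfatc1 (-1.83), Irf4 (-1.01) and Nfatc3 (-0.78) fell with IL-6+IL-1β+IL-23 and Nfatc2 rose (0.70). Irf4 had 1827 CPM in KO and 1757 CPM in WT cells with IL-6+IL-1β+IL-23 and 3554 CPM in KO and 3666 CPM in WT cells with TGF-β+IL-6, in the direction of Batf. Of 23 other bZIP factors, 10 rose and 8 fell. The bZIP repressor Jdp2, which lies between Fos and Batf on chromosome 12, had 13.5 and 17.4 CPM in KO and WT cells with IL-6+IL-1β+IL-23 against 0.19 and 0.25 CPM with TGF-β+IL-6 (6.07). Nfil3 (2.23) and Crem (1.48) rose and Bach2, a repressor that competes at AP-1 sites, fell (-1.21). Of the 9 phosphatases 6 rose, among them Dusp5 (1.24), Dusp7 (0.99) and Dusp6 (0.95), and 2 fell, Dusp4 (-0.82) among them. Kinases and adaptors split into 8 higher and 7 lower of 24, led by Map2k6 (3.39), Map2k3 (-1.58) and Mapk3 (1.30). Of the 16 immediate-early genes 6 rose, Egr1 (1.23) among them, and 9 fell, including Nr4a3 (-4.04), Zfp36l1 (-3.13) and Nr4a1 (-1.46). Of the 9 Th17 genes 3 rose and 3 fell, with Il22 at 7.99 and Il23r at 1.94.

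Members were also matched to the genes whose log2 CPM, centred within colon and within culture, ran most like theirs over the 8 libraries. These correlations rest on points that share libraries and groups and are given as descriptions. Batf ran closest to Cd5, a T cell surface marker (Pearson r = 0.998), Got2 (0.997) and Ppp1r9b (0.997), among 153 of 8603 genes with r above 0.95. Batf3 ran closest to Vwa5a, Dirc2 and Txndc9 (0.993, 0.992 and 0.991). Junb ran closest to Mta1 (0.994) and Gadd45gip1 (0.994), and Jund had Junb among its 3 nearest genes (0.987). Atf3 ran closest to Zbtb2 (0.993), with the phosphatase Dusp6 among its 3 nearest genes (0.978), and Fosb ran closest to the clock gene Per2 (0.991). For Batf3 525 genes, and for Fosb 127 genes, had r above 0.95. Batf3 in the colon and Fosb in culture lay below the mean of 5 CPM asked of the compared genes. Their correlations thus rest in part on low counts. The nearest gene was Gpr174 for Fosl1 (0.997), Faah for Fosl2 (0.997), Rmi1 for Jun (0.989) and Acp2 for Fos (0.981).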

How the data were processed

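RNA was measured in 8 mouse CD4+ T cell libraries, and each deposited table held raw read counts by gene, not normalized, per the file headers. The submitters' processing notes name Trim Galore, Bowtie2, featureCounts, edgeR, DESeq2 and build mm10, without roles or versions. No strand setting is stated in the labels. Symbols that had been turned into dates (27 in colon tables, 26 in culture tables, 0.174% to 0.269% of counts) were left out, and the tables were joined by symbol for 53657 genes.

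Libraries were grouped by their titles. Tests used edgeR 4.0.16 in R 4.3.3 (filterByExpr, TMM, quasi-likelihood F-test, Benjamini-Hochberg adjustment over all genes tested, threshold 0.05). The colon was fitted alone, culture with additive terms for cytokine mix and genotype, and the difference of genotype effects on all 8 libraries, with 2, 1 and 3 residual degrees of freedom. CPM are TMM-scaled. Standard errors were taken as the absolute log2 fold change over the square root of F. Ratios of single libraries are ratios of CPM, with a prior count of 2 only in the log2 ratios behind the 2-fold counts and in the correlations, and 95% intervals cover counting error only. The fits were tested on simulated data. Alternatives were DESeq2 1.42.0, other scalings, no filter, a replicate block and leaving out each colon library.

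The members and gene lists were chosen with earlier results of these data known. All 10 members are named, and of each list up to 4 genes with the smallest p, of which some are not reported here. Per-kb levels divide CPM by GENCODE M21 exon length. Promoters are RefSeq windows in GRCm38.p6, held for 9 of the 10 genes.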

Additional observations from a re-analysis of the deposited data

Results flagged for a closer look

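The genotype effect in the colon minus that in culture was tested for the 10 members and the 5 composite-element partners, 15 genes, and 4 differed in edgeR's test with adjustment over all genes, which called 17.3% of 14886 genes. Batf differed by -1.15 on the log2 scale, lower in KO in both colon libraries and within counting error of WT in both culture mixes. Irf8 differed by -0.94, lower in KO in the colon and, with 82.1 CPM in KO and 69.2 CPM in WT cells with IL-6+IL-1β+IL-23 and 76.6 CPM in KO and 67.1 CPM in WT cells with TGF-β+IL-6, higher in the KO libraries of culture, where it was not called. Irf4 differed by -0.60 and Fosl2 by -0.43. Scaling to the T cell markers, under which neither Irf4 nor Fosl2 was called in the colon, was not tried for this difference.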

How the results depend on the processing

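Batf, Atf3, Fos and Fosl1 kept direction and call for genotype in the colon under all 11 alternatives, and the calls of other members that did not are given with the results. Leaving out 1 colon library leaves 1 residual degree of freedom there, and the lone library is assumed to vary like those of the other genotype. DESeq2 called 5 of the 10 members in the colon. Genotype calls over all genes in culture were 2, against 9 with DESeq2 size factors, 9 with library totals, 0 without a filter, 7 with DESeq2 and 15 in a fit of all 8 libraries, and none of the 10 members was called in any of them. For the difference between colon and culture, 4 members were called with library totals and 4 without a filter, against 2, and leaving out 1 colon library gave 1 to 4 members and 1676 to 2463 genes, against 2572, with the lowest of both without KO replicate 2. Calls of that difference over all genes were 1147 higher and 1425 lower with TMM and 2268 higher and 564 lower with library totals.

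Signs turned for members that were not called. For genotype in the colon, leaving out 1 library each gave -0.059 to 0.40 for Jun and -0.52 to 0.68 for Batf3, with Batf3 at -0.053 without WT replicate 2. For the difference, Batf3 was -0.0020 with DESeq2 size factors, -0.0025 without a filter, and -0.73 to 0.47 with 1 library left out (-0.27 without WT replicate 2). Jun was 0.17 with library totals and -0.25 to 0.23 with 1 library left out (0.03 without KO replicate 2), and Fosb was 0.10 with library totals. T cell marker scaling, added after seeing the data, gave 0.21 for Nfatc1, 0.072 for Btg2, 0.075 for Zfp36 and 0.072 for Ier3. The cause was not tested.

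The replicate numbers of KO and WT share only a number (correlation of deviations 0.15). With the replicate block, 6186 genes and 8 members were called in the colon, against 5165 and 8. Culture groups have 1 library each, and none was left out there. The low counts of Batf3 in the colon and of Fosb and Fosl1 limit their precision.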
